A study of Mus musculus with 16 samples.

Results

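The 9 genes examined here encode the surfactant proteins and parts of the lamellar body, the storage organelle of surfactant in alveolar epithelial type II (AT2) cells. They were chosen by name: Sftpa1, Sftpb, Sftpc and Sftpd for the surfactant proteins, Abca3, Lamp3, Napsa, Slc34a2 and Lpcat1 for the lamellar body and for surfactant lipid and phosphate handling. All 9 were measured, by 11 array features among the 31439 features that carried a gene name, and they are 9 of the 20725 genes on the array. For each gene the feature with the highest mean over the 16 samples was used, and for Sftpb and Sftpd, which had 1 further feature each, that feature is given beside it.

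The samples were AT2 cells of mouse pups at postnatal day 3, hybridised to 16 single-colour Cy3 arrays. By their titles they comprised 2 samples of Fgf10+/- pups and 6 of wild-type (WT) pups kept in 85% oxygen from day 0 to day 3 (hyperoxia), and 4 of Fgf10+/- and 4 of WT pups kept in normoxia. Fgf10+/- pups carry 1 disrupted copy of the gene for fibroblast growth factor 10, a growth factor made by lung mesenchyme. The series text states 4 samples per group in place of these numbers, and the titles were followed. Strain, sex, the number of pups per sample and the way the cells were isolated are not known from the labels, and nothing says that the samples came from separate animals, so the p-values measure the spread between these samples.

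Surfactant is a film of phospholipid and protein that lowers surface tension at the air-liquid interface of the alveolus. Its lipid, mostly phosphatidylcholine, is carried into lamellar bodies by ABCA3, and the small hydrophobic proteins SP-B and SP-C are cut from larger precursors on the way there and are secreted with the lipid. SP-A and SP-D are soluble collectins that bind microbes. In AT2 cells these genes are driven by transcription factors that include NKX2-1, FOXA2 and C/EBPα.

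Promoters of 6 of the 9 genes were matched in RefSeq sequence of the GRCm38.p6 assembly, and 4 are shown because they held a short motif of one of these factors. Each is the 250 bases before the annotated start of the gene, on the strand of the gene. They lie at chr14:41131538-41131787 on the plus strand for Sftpa1, chr6:72304360-72304609 on the plus strand for Sftpb, chr5:53049103-53049352 on the plus strand for Slc34a2 and chr16:19706366-19706615 on the minus strand for Lamp3. Capitals mark the matches.
Sftpa1: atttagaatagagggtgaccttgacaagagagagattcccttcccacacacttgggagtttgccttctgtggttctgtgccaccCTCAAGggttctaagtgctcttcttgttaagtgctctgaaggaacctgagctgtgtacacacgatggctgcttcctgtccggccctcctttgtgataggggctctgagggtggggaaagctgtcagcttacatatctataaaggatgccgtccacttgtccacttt
Sftpb: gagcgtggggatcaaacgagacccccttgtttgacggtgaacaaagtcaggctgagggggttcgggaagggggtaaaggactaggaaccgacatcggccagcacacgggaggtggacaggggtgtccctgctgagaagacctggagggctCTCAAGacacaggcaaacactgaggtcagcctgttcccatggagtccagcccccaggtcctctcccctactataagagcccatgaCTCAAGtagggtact
Slc34a2: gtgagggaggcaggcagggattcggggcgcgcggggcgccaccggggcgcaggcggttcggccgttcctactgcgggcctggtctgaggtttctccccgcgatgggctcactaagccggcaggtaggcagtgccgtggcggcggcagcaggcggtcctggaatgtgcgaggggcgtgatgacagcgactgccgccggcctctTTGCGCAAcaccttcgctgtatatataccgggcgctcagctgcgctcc
Lamp3: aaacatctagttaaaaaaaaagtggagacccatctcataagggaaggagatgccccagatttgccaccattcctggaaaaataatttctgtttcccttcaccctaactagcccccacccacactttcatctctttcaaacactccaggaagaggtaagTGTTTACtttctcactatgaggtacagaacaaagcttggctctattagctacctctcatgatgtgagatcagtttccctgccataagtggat
The motifs searched on both strands were CTCAAG for NKX2-1, TGTTTAC for FOXA factors and TTGCGCAA for C/EBP factors, and no matches overlapped. CTCAAG stood 166 to 161 bases before the start in Sftpa1, and 100 to 95 and 15 to 10 bases before it in Sftpb. TTGCGCAA stood 48 to 41 bases before the start in Slc34a2, and TGTTTAC 92 to 86 bases before it in Lamp3. Over all 32851 mouse promoters of the same length, 13.3% held CTCAAG, 3.17% held TGTTTAC and 0.164% held TTGCGCAA. The windows of Abca3 and Lpcat1 held none of these letters.

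The deposited values are log2 intensities that the authors had already brought to a nearly shared distribution, with a highest value of 15.98 and a median of 4.34 over all features and arrays. Sftpc, which encodes SP-C and is the classical AT2 marker, lay within 0.05 of the highest value of its array on 16 of 16 arrays and ranked 1st to 4th there. Its value there followed its rank, with 15.98 at rank 1, 15.97 at rank 2, 15.96 at rank 3 and 15.95 at rank 4. A change of Sftpc could therefore not be measured, and medians and counts of direction are given for the 8 members below the ceiling. Whether its signal was saturated is not known from these values. No other member came within 0.2 of the ceiling, and the next closest, Sftpd, stayed at least 0.60 below it. The cells thus carried the defining AT2 marker at the top of the array, and a club cell and a red cell gene were there too: Scgb1a1, the main club cell secretory protein gene, was within 0.05 of the ceiling on 8 arrays and Hba-a1, an alpha globin gene, on 7.

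**Figure D1:**
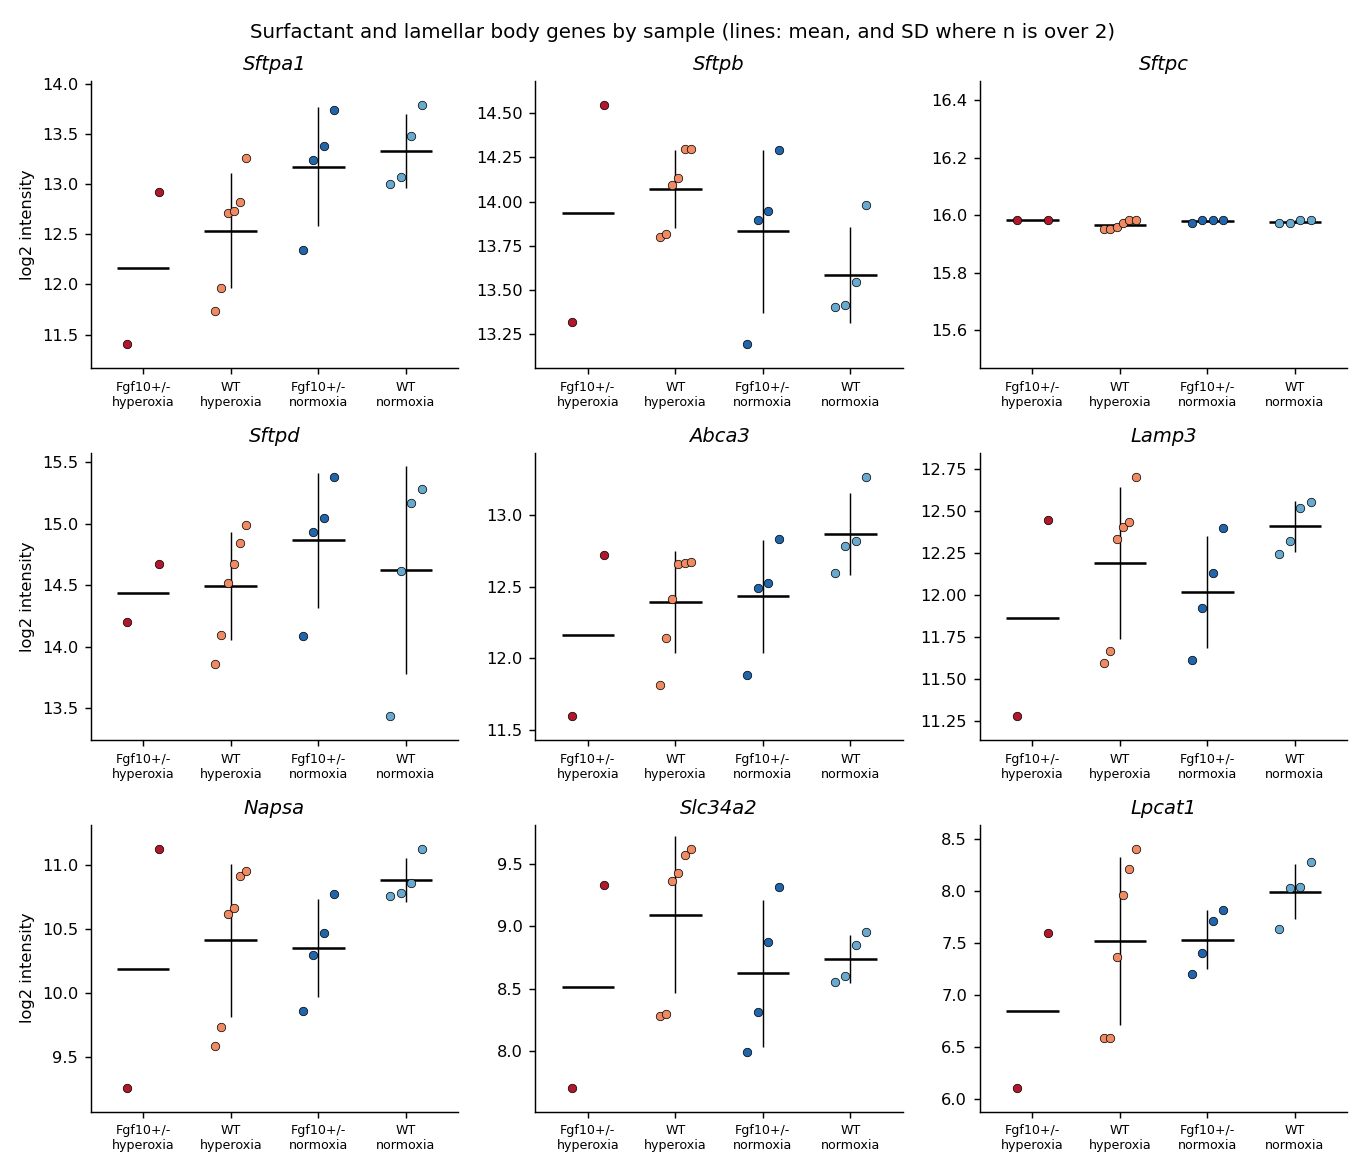
Log2 intensity of the 9 genes in each sample, with the 4 groups along the horizontal axis and a vertical axis of its own for each gene. Points are samples, the long lines are group means and the thin lines are SD where a group has more than 2 samples. Sftpa1 lies lower in the hyperoxia groups, with overlap, Sftpc is flat at the ceiling, and the wide spread between the samples of a group is seen in every other gene.

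No member passed the test in hyperoxia against normoxia, in either genotype. With group means fitted by limma over all 20725 genes and a Benjamini-Hochberg adjusted p under 0.05 as the threshold, 0 of 9 members were called in WT pups, where 3.13% of all genes were called, and 0 of 9 in Fgf10+/- pups, where 2.45% were. At an unadjusted p under 0.05, 1 of 9 members passed in each genotype, Sftpa1 in both, beside 18.2% of all genes in WT and 16.7% in Fgf10+/- pups. Of the 8 members below the ceiling, 6 had a negative difference in WT pups, beside 58.3% of all genes. The median of the 8 was -0.35 against -0.08 for all genes. Negative differences made up 7 of the 8 in Fgf10+/- pups, beside 53.4% of all genes, with a median of -0.22 against -0.04. The members moved together from sample to sample, as given below, so these counts are not independent observations.

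Sftpa1, the gene of the collectin SP-A, was the member with the lowest difference in both genotypes. Its log2 intensity was 12.92 and 11.40 in the Fgf10+/- hyperoxia samples. In the 6 WT hyperoxia samples it ran from 11.73 to 13.26 with a median of 12.72. In the Fgf10+/- normoxia samples it was 13.24, 12.34, 13.73 and 13.38, and in the WT normoxia samples 13.00, 13.79, 13.47 and 13.07. The order of the group means was thus Fgf10+/- hyperoxia, WT hyperoxia, Fgf10+/- normoxia and WT normoxia, from low to high, and neighbours in that order overlapped. The means were 12.16 ± 1.07 (SD, n = 2), 12.53 ± 0.57 (n = 6), 13.17 ± 0.59 (n = 4) and 13.33 ± 0.37 (n = 4). In WT pups the level in hyperoxia was 1.74-fold lower than in normoxia, a log2 difference of -0.80 with an SE of 0.35 and a 95% interval of -1.54 to -0.05 (limma, adjusted p = 0.238). In Fgf10+/- pups the difference was -1.01 with an SE of 0.47 (limma, adjusted p = 0.294). It shrank to -0.25 without the Fgf10+/- hyperoxia library with the replicate number 2, and grew to -1.77 without the one numbered 1.

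Because the titles and the series text differ on how many hyperoxia samples belong to each genotype, the 8 hyperoxia samples were also set against the 8 normoxia samples without regard to genotype, a comparison added after the data had been seen. Sftpa1 was then the 1 member called of 9, beside 14.3% of all genes, and the 1 member at an unadjusted p under 0.05, beside 27.3%. It averaged 12.44 ± 0.66 in hyperoxia and 13.25 ± 0.46 in normoxia (SD, n = 8 each), a log2 difference of -0.81 with a 95% interval of -1.37 to -0.26 (limma, adjusted p = 0.0473). That call was close to the threshold. When each of the 16 samples was left out in turn the difference ran from -0.94 to -0.66, and Sftpa1 passed in 5 of the 16 fits, those without Fgf10+/- normoxia replicate 2, WT normoxia replicate 1, WT hyperoxia replicate 3, WT hyperoxia replicate 4 or Fgf10+/- hyperoxia replicate 1. The adjusted p ranged from 0.0234 to 0.0915. In bulk samples fewer cells of a type and less RNA per cell cannot be told apart.

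**Figure D2:**
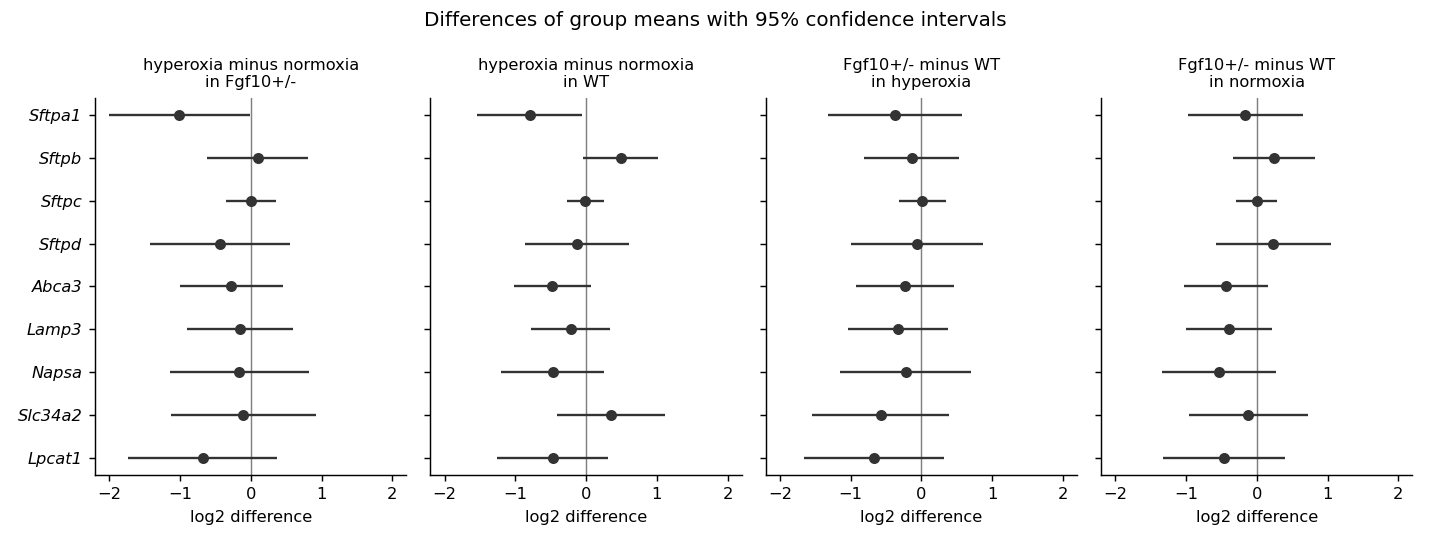
Log2 difference of group means for each gene in 4 comparisons, with 95% confidence intervals from limma. Only the intervals of Sftpa1 in hyperoxia against normoxia lie wholly below 0, and no member passed the adjusted threshold.

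Sftpb encodes SP-B, the hydrophobic protein needed for lamellar body formation and for spreading of the film. The brighter of its 2 features read 14.55 and 13.32 in Fgf10+/- hyperoxia samples and 13.80 to 14.30 with a median of 14.11 in WT hyperoxia samples. It read 14.29, 13.19, 13.90 and 13.95 in Fgf10+/- normoxia samples and 13.41, 13.54, 13.98 and 13.40 in WT normoxia samples. In WT pups its difference between hyperoxia and normoxia was 0.49 with a 95% interval of -0.05 to 1.02 (limma, adjusted p = 0.323). The groups overlapped only through WT normoxia replicate 3, whose 13.98 was above the lowest hyperoxia samples. The dimmer Sftpb feature ran the other way in the same comparison, with 10.72 ± 0.46 in WT hyperoxia (SD, n = 6) and 10.95 ± 0.15 in WT normoxia (n = 4), a difference of -0.23 (limma over all features, adjusted p = 0.81). Over the 16 samples the 2 features correlated with Pearson r = 0.53. A difference of Sftpb with hyperoxia therefore depends on which feature is read.

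Sftpd encodes SP-D, the other soluble collectin. Its brighter feature read 14.67 and 14.20 in Fgf10+/- hyperoxia samples and 13.86 to 14.99 with a median of 14.59 in WT hyperoxia samples. It read 14.94, 14.09, 15.38 and 15.05 in Fgf10+/- normoxia samples and 13.43, 15.29, 15.17 and 14.61 in WT normoxia samples. The low WT normoxia value of 13.43 belonged to replicate 1, which also had the highest mean of the smooth muscle and pericyte markers (9.22) and of the fibroblast markers (10.74) of all samples, and their part in the result was not tested. The differences between hyperoxia and normoxia were -0.13 in WT pups and -0.43 in Fgf10+/- pups (limma, adjusted p = 0.884 and 0.704). Without WT normoxia replicate 1 the WT difference was -0.53. The dimmer feature gave -0.48 and -0.84 in the same comparisons (limma over all features, adjusted p = 0.624 and 0.528), and the 2 features correlated with r = 0.956 over the 16 samples.

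The 2 Sftpd features were not offset by a constant amount. The brighter minus the dimmer was 2.30 and 2.52 in Fgf10+/- hyperoxia and 2.26 to 2.54 in WT hyperoxia samples. It was 1.82 to 2.21 in Fgf10+/- normoxia and 1.91 to 2.09 in WT normoxia samples. In this difference every hyperoxia sample lay above every normoxia sample. For Sftpb the same difference of features was 3.43 and 4.00 in Fgf10+/- hyperoxia, 2.99 to 3.70 in WT hyperoxia, 3.14 to 3.80 in Fgf10+/- normoxia and 2.38 to 3.11 in WT normoxia samples, so that only WT normoxia stood lower, with 1 sample inside the range of the other groups. Neither difference was tested, since they were noticed in these data. On the array 6165 genes had more than 1 feature, and the share of them that separates in this way is not given here.

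**Figure D3:**
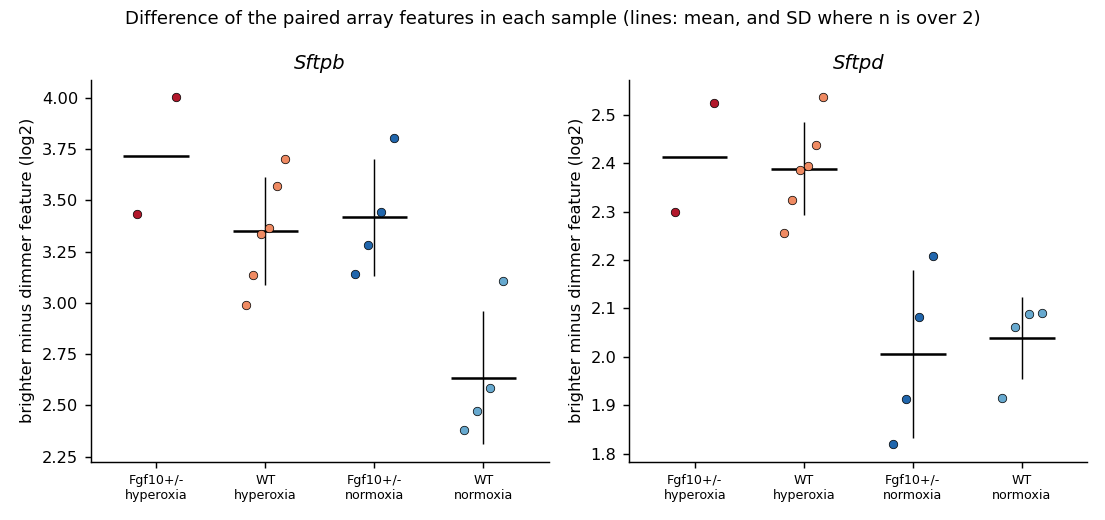
Brighter minus dimmer array feature of Sftpb (left) and Sftpd (right) in each sample, on the log2 scale. Points are samples, long lines group means and thin lines SD where n is over 2. For Sftpd the 8 hyperoxia samples lie above the 8 normoxia samples, and for Sftpb the WT normoxia samples lie lowest.

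None of the 5 genes of the lamellar body, its lipid and phosphate passed the test. Abca3, the transporter that loads phospholipid into lamellar bodies, averaged 12.39 ± 0.35 in WT hyperoxia (SD, n = 6) and 12.87 ± 0.29 in WT normoxia (n = 4), a difference of -0.48 (limma, adjusted p = 0.348). In Fgf10+/- pups its difference was -0.27 (limma, adjusted p = 0.753). The WT groups overlapped between 12.60 and 12.67. Lamp3, a membrane protein of lamellar bodies, differed by -0.22 in WT and -0.15 in Fgf10+/- pups, and Napsa, the aspartic protease that cuts pro-SP-B and pro-SP-C, by -0.47 and -0.16. Lpcat1, an acyltransferase of saturated phosphatidylcholine synthesis, read 7.59 and 6.11 in Fgf10+/- hyperoxia and 6.59 to 8.40 with a median of 7.66 in WT hyperoxia samples, and 7.81, 7.20, 7.71 and 7.40 in Fgf10+/- normoxia and 8.03, 8.04, 8.27 and 7.63 in WT normoxia samples. Its differences were -0.47 in WT and -0.68 in Fgf10+/- pups. Slc34a2, the sodium phosphate cotransporter of the AT2 cell surface, differed by 0.35 in WT and -0.11 in Fgf10+/- pups. In WT hyperoxia it was at 8.28 and 8.30 in replicates 6 and 5 and between 9.36 and 9.62 in the other samples, while the WT normoxia samples lay between 8.55 and 8.95. The adjusted p of these 4 genes in both genotypes ranged from 0.509 to 0.944 (limma).

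Fgf10 itself, a gene of mesenchyme, was dim in these epithelial cells and does not check the genotype labels, at 5.07 ± 0.43 in Fgf10+/- hyperoxia, 5.13 ± 0.28 in WT hyperoxia, 4.42 ± 0.36 in Fgf10+/- normoxia and 4.74 ± 0.77 in WT normoxia samples (SD). No member was called between genotypes. In normoxia 0 of 9 members passed in Fgf10+/- against WT pups, at a background of 0.00965% of genes, and in hyperoxia 0 of 9, at a background of 0%. In the interaction of genotype and hyperoxia 0 of 9 passed, at a background of 0.00965%. At an unadjusted p under 0.05, limma found 0 members in each of the 3 comparisons, beside 6.03%, 4.37% and 4.11% of all genes. In normoxia the lowest differences were those of Napsa, at 10.35 ± 0.38 in Fgf10+/- and 10.88 ± 0.17 in WT samples (SD, n = 4 each), a difference of -0.53 with a 95% interval of -1.33 to 0.27, and Lpcat1, Abca3 and Lamp3 followed with -0.46, -0.44 and -0.39. Napsa read 10.30, 9.86, 10.77 and 10.47 in the Fgf10+/- and 10.86, 11.13, 10.76 and 10.78 in the WT normoxia samples, which overlap through a single pair of samples. In hyperoxia Lpcat1 was lowest, at 6.85 ± 1.05 in Fgf10+/- (n = 2) and 7.52 ± 0.80 in WT samples (n = 6), a difference of -0.67 with a 95% interval of -1.66 to 0.32. The interaction ran from -0.46 for Slc34a2 to 0.31 for Napsa. With 2 Fgf10+/- hyperoxia samples these intervals are wide. Of 2-fold changes simulated in randomly picked genes, limma recovered 19% for hyperoxia in Fgf10+/- pups and 39% in WT pups. For Fgf10+/- against WT it recovered 33% in normoxia and 18% in hyperoxia. The simulation drew independent noise from each gene's mean and spread. These shares are therefore not the recovery for the members, which moved together from sample to sample.

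The largest differences among the members were between the samples of a group, and the members shared them. With each group's mean taken away, the 7 members other than Sftpc and Sftpd correlated with one another over the 16 samples with Pearson r between 0.72 and 0.96, and Sftpd correlated with these 7 with r between 0.35 and 0.65. The samples share their array and the normalisation, and these values are given as a description. Lamp3 and Napsa had the highest r, at 0.96, and Sftpb and Lamp3 the lowest of the 7, at 0.72.

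A few samples carried this pattern. Averaged over the 8 members without Sftpc, Fgf10+/- hyperoxia replicate 1 stood 0.66 above its group mean with 0 of 8 members below it, and replicate 2 stood as far below with 8 of 8 members below, as must follow in a group of 2. WT hyperoxia replicates 2, 3 and 4 stood 0.29, 0.49 and 0.34 above their group mean. WT hyperoxia replicate 5 was 0.62 below it with 8 of 8 members below, and replicate 6 was 0.54 below it with 7 of 8. Fgf10+/- normoxia replicate 2 was 0.58 below with 8 of 8, whereas the WT normoxia samples stood between 0.19 below and 0.22 above their mean.

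**Figure D4:**
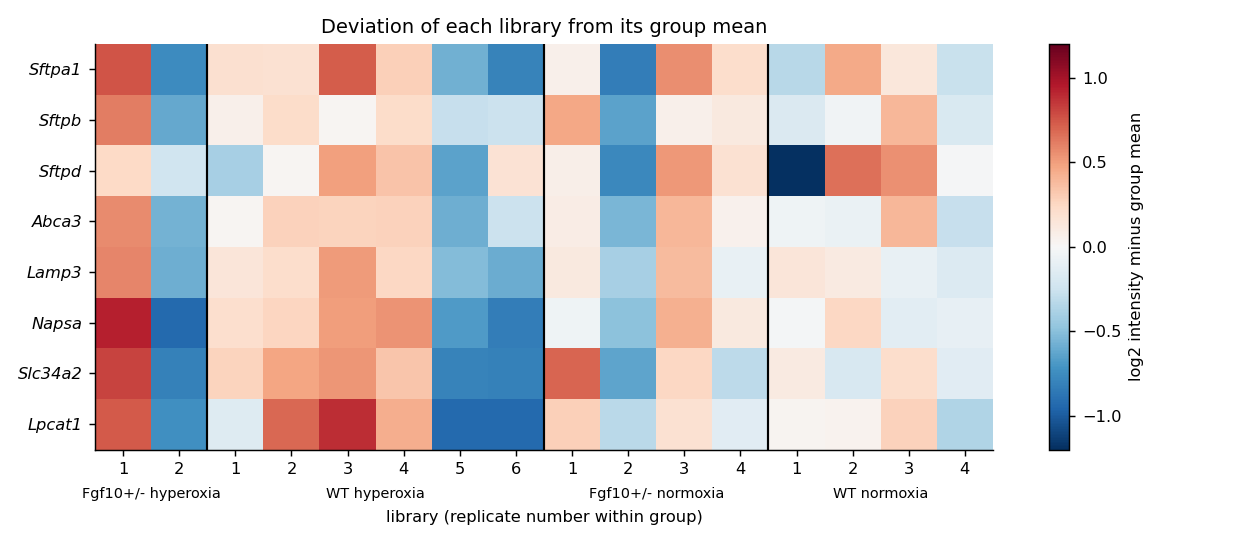
Log2 intensity minus the mean of the group for the 8 members below the ceiling, with samples along the horizontal axis by group and replicate number. Red is above and blue below the group mean. WT hyperoxia replicates 5 and 6 and Fgf10+/- normoxia replicate 2 are blue in nearly all rows, and Sftpd in WT normoxia replicate 1 stands apart.

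The same samples were low in other genes of AT2 cells. The mean of 15 other AT2 genes was 8.46 in Fgf10+/- hyperoxia replicate 2, between 8.96 and 9.02 in WT hyperoxia replicates 5 and 6 and Fgf10+/- normoxia replicate 2, and between 9.28 and 9.84 in the other samples. Within groups this mean correlated with the mean of the 8 members below the ceiling with r = 0.96. The corresponding r was 0.73 for 10 AT1 cell markers, 0.12 for 7 club and secretory cell markers, 0.31 for 8 ciliated cell markers, 0.25 for 10 macrophage markers, -0.35 for 10 endothelial markers, -0.30 for 10 fibroblast markers and -0.51 for 9 neutrophil markers. The club and secretory list, with 0 of 7 genes called in either genotype, had sample means from 11.82 to 13.42 in Fgf10+/- hyperoxia, 10.92 to 14.49 in WT hyperoxia, 13.77 to 14.66 in Fgf10+/- normoxia and 12.64 to 14.72 in WT normoxia. The endothelial list had means from 8.10 to 9.44, 8.21 to 9.42, 7.17 to 7.68 and 8.07 to 8.48 in the same order of groups, and 3 of its 10 genes, Egfl7, Cldn5 and Ramp2, rose with hyperoxia in Fgf10+/- pups, beside 2.45% of all genes. All 3 missed the threshold without Fgf10+/- hyperoxia replicate 2, with differences of 1.88, 1.46 and 1.01 in place of 2.46, 2.08 and 1.71. Of 10 endothelial and 10 fibroblast markers 0 lay below the array median, and of 10 smooth muscle and 10 macrophage markers 1 each. The brightest markers were Gprc5a and Emp2 for AT1 cells, Krt18 and Lgals3 for transitional epithelium, Scgb1a1 and Cbr2 for club cells, Dynlrb2 and Tppp3 for ciliated cells, Egfl7 and Cldn5 for endothelium, Col1a2 and Mfap4 for fibroblasts and Myl9 and Tagln for smooth muscle. Among blood cells they were Csf1r and Ctss for macrophages, Ccr7 and Fscn1 for dendritic cells, Csf3r and S100a9 for neutrophils, Cd79b and Cd22 for B cells, Tcf7 and Ccr9 for thymocytes, and Hba-a1 and Hbb-bt for red cells. Of these, Csf3r rose by 1.56 and Cd22 by 1.65 in WT hyperoxia (limma, adjusted p = 0.00775 and 0.00677). The other Cd22 feature differed by -0.11 in WT pups. With the features of a gene averaged, Cd22 missed the threshold, at 0.77 (limma, adjusted p = 0.0646). With the replicate number as a block both genes missed it, Csf3r at 1.48 and Cd22 at 1.53. The thymocyte list, with 0 of 10 genes called in either genotype, had a negative difference for 9 of 10 genes in Fgf10+/- and 10 of 10 in WT pups. Over all genes 53.4% and 58.3% were negative in the same order. The part of other cell types in the members' values was not tested.

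The 8 genes whose deviations most resembled the mean of these 8 members, of 12640 genes brighter than the array median, were Cxcl15 (r = 0.96), Rtkn (0.95), Tgoln1 (0.94), Plin3 (0.94), Ctsz (0.93), Etv5 (0.93), Bex4 (0.92) and Slc26a9 (0.92), over the 16 samples and with group means removed. Cxcl15, a chemokine gene of lung epithelium, differed by -0.36 with hyperoxia in WT and -0.55 in Fgf10+/- pups, and Etv5, an ETS transcription factor gene, by -0.52 and -0.45 (limma, adjusted p from 0.293 to 0.57). In the same order of genotypes Rtkn differed by -0.26 and -0.20, Tgoln1 by -0.40 and -0.73, and Slc26a9 by -0.25 and 0.04. Plin3 differed by 0.13 and 0.34, Bex4 by 0.10 and 0.28, and Ctsz by 0.29 and -0.02.

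Hyperoxia was therefore also compared at an equal level of AT2 genes, with the mean of the 15 other AT2 genes as a covariate in limma, a fit added after the data had been seen. In WT pups 1 of 9 members was then called, beside 2.98% of all genes. This was the brighter Sftpb feature, with a difference of 0.71 and a 95% interval of 0.35 to 1.07 (limma, adjusted p = 0.0342). The dimmer Sftpb feature had a difference of 0.08 in that fit, with a 95% interval of -0.33 to 0.49. The Sftpb call was lost when all features were fitted at once (limma, adjusted p = 0.0783) and in 8 of 10 fits that left out 1 WT sample, with differences between 0.65 and 0.73 in those 8. It was also lost with Dlk1 left out of the covariate list, at 0.59 (limma, adjusted p = 0.0684). Slc34a2 differed by 0.70 (limma, adjusted p = 0.0933), and Sftpa1 by -0.44 with a 95% interval of -0.82 to -0.05 (limma, adjusted p = 0.21). In Fgf10+/- pups 0 of 9 members were called in this fit, beside 2.06% of all genes, and 1 of 9 at an unadjusted p under 0.05, which was Sftpb at 0.57, beside 16.3%. In WT pups 3 of 9 passed unadjusted, beside 18% of all genes. Of the 8 members below the ceiling, 4 were lower and 4 higher in WT hyperoxia in this fit, where 57.6% of all genes were lower. Their median was -0.05 against -0.08 for all genes. In Fgf10+/- hyperoxia, where 51.7% of all genes were lower, 1 was lower and 7 were higher, with a median of 0.31 against -0.03 for all genes. The covariate list held Dlk1, which itself differed by -1.97 in WT and -2.98 in Fgf10+/- hyperoxia. These counts and medians are not given without Dlk1, and its part in them was not tested. Between genotypes 0 of 9 were called in this fit, in normoxia beside 0.00965% and in hyperoxia beside 0% of all genes. At an unadjusted p under 0.05, limma gave 3 of 9 in normoxia, beside 6.5% of all genes, which were Napsa, Abca3 and Lamp3, all lower in Fgf10+/- pups at -0.53, -0.44 and -0.39. In hyperoxia it gave 0 of 9, beside 5.48%.

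Of 20 genes for phospholipid and fatty acid synthesis, 1 rose and 0 fell in WT pups, where 3.13% of all genes were called, and 0 were called in Fgf10+/- pups, where 2.45% were. The medians were -0.24 and -0.09. The gene that rose was Cept1, a choline/ethanolamine phosphotransferase, at 9.27 ± 0.07 in WT hyperoxia (SD, n = 6) and 8.64 ± 0.09 in WT normoxia (n = 4), 1.55-fold higher (limma, adjusted p = 0.0349). Its difference was 0.60 in Fgf10+/- pups (limma, adjusted p = 0.149). It missed the threshold in each fit that left out 1 WT sample, other than the fit without WT hyperoxia replicate 3, while its difference stayed between 0.58 and 0.65. The brightest genes of the list were Prdx6, a peroxiredoxin with phospholipase activity toward surfactant lipid, and Elovl1, a fatty acid elongase, which differed by 0.37 and -0.31 in WT pups (limma, adjusted p = 0.566 and 0.544).

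Among 21 genes for lamellar body sorting, protein processing and secretion, 1 rose in each genotype and 0 fell. Over all genes 3.13% were called in WT and 2.45% in Fgf10+/- pups. The gene that rose was Snap23, a SNARE protein of vesicle fusion. Its brightest feature was 9.97-fold higher in WT hyperoxia and 7.85-fold higher in Fgf10+/- hyperoxia than in normoxia (limma, adjusted p = 0.000379 and 0.0151). The other 2 Snap23 features differed by 0.58 and -0.12 in WT pups and by 0.27 and 0.56 in Fgf10+/- pups on the log2 scale, so the change belongs to 1 feature of 3. In Fgf10+/- pups it missed the threshold without either hyperoxia sample, at 2.54 and 3.40. Lamp1, a lysosomal membrane protein, and Ctsh, the cathepsin that takes part in SP-B processing, differed by 0.36 and 0.06 in WT pups (limma, adjusted p = 0.347 and 0.939).

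Of 15 regulators of surfactant genes, 0 were called in either genotype, beside 3.13% of all genes in WT and 2.45% in Fgf10+/- pups. At an unadjusted p under 0.05, limma gave 3 in WT pups, beside 18.2% of all genes, and 1 in Fgf10+/- pups, beside 16.7%. In WT pups 12 of the 15 had a negative difference, beside 58.3% of all genes, with a median of -0.47 against -0.08 for all genes. In Fgf10+/- pups 10 of the 15 were negative, beside 53.4% of all genes, with a median of -0.09 against -0.04. In WT pups Nkx2-1 was at 8.13 ± 0.33 in hyperoxia (SD, n = 6) and 8.78 ± 0.52 in normoxia (n = 4), a difference of -0.65 (limma, adjusted p = 0.188). Cebpa differed by -0.66 and Foxa2 by 0.05 in the same comparison (limma, adjusted p = 0.292 and 0.947). Cebpd and Etv5, the brightest of the list, differed by -0.27 and -0.52.

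Of 15 other AT2 genes 1 fell in each genotype and 0 rose, beside 3.13% of all genes in WT and 2.45% in Fgf10+/- pups. It was Dlk1, a transmembrane protein of the Notch ligand family, at 8.44 ± 0.72 in Fgf10+/- hyperoxia (n = 2) and 11.41 ± 0.64 in Fgf10+/- normoxia (n = 4), and at 9.44 ± 0.39 in WT hyperoxia (n = 6) and 11.41 ± 0.35 in WT normoxia (n = 4). In both genotypes every hyperoxia sample lay below every normoxia sample (limma, adjusted p = 0.00233 in Fgf10+/- and 0.00121 in WT pups). The share of all genes whose groups separate in this way is not given here. Hc and Mfge8, the brightest, differed by 0.34 and 0.04 in WT pups.

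Among 10 genes of soluble airspace defence, 0 were called in WT pups, beside 3.13% of all genes, and 2 fell in Fgf10+/- pups, beside 2.45%. In Fgf10+/- pups 9 of 10 were negative, beside 53.4% of all genes, with a median of -1.23 against -0.04 for all genes. In WT pups 10 of 10 were negative, beside 58.3% of all genes, with a median of -0.60 against -0.08. Cfb, complement factor B, was at 6.73 ± 0.91 in Fgf10+/- hyperoxia (n = 2) and 11.11 ± 0.79 in Fgf10+/- normoxia (n = 4), and Lcn2, an iron-sequestering lipocalin, at 9.13 ± 1.34 and 12.70 ± 0.66 in the same groups (limma, adjusted p = 0.00233 and 0.00499). In WT pups Cfb differed by -1.53 and Lcn2 by -0.85 (limma, adjusted p = 0.0717 and 0.306), and the interaction was -2.86 for Cfb and -2.72 for Lcn2 (limma, adjusted p = 0.988 for both, unadjusted 0.00135 and 0.00151). Lcn2 missed the threshold without Fgf10+/- hyperoxia replicate 2, at -2.62. The brightest of the list were Scgb1a1 and C3, complement component 3, and C3 differed by -1.55 in Fgf10+/- pups (limma, adjusted p = 0.0593). Club cells also express several genes of this list.

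Of 10 genes of surfactant clearance by macrophages, 0 were called in WT pups, beside 3.13% of all genes. In Fgf10+/- pups 1 rose, beside 2.45%. It was Pparg, a nuclear receptor of lipid handling, which was 2.32-fold higher in Fgf10+/- hyperoxia than in Fgf10+/- normoxia (limma, adjusted p = 0.0418) and missed the threshold without either hyperoxia sample or without normoxia replicate 2, 3 or 4, with a lowest difference of 1.13 in those 5 fits. In these libraries 10 of 10 genes of the list were higher in Fgf10+/- hyperoxia, with a median of 0.58, and 9 of 10 in WT hyperoxia, with a median of 0.53. Of all genes 53.4% were lower in Fgf10+/- and 58.3% in WT hyperoxia, with medians of -0.04 and -0.08. The 10 macrophage markers, of which 0 were called, had medians of 0.32 in Fgf10+/- and 0.46 in WT pups, and the 10 smooth muscle and pericyte markers, of which 0 were called, 1.24 and 0.75. Their part in the result was not tested. Csf2ra and Abcg1, the brightest, differed by 0.33 and 0.72 in WT pups (limma, adjusted p = 0.472 and 0.251).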

How the data were processed

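The authors deposited 1 table of normalized log2 intensities for 62976 features and 16 Cy3 arrays; that the scale is log2 was inferred from the values. For the software, background correction and normalization method, nothing is stated in the sources used here. Per the labels' protocols, total RNA was amplified and labelled with an Agilent single-colour kit. Features with a missing value (65) were left out, and older gene symbols were replaced by those of RefSeq (GRCm38.p6). The feature with the highest mean stood for each of 20725 genes. The sorted values of any 2 arrays differed by at most 0.20. No detection flags, slides or scan labels came with the values, so background and slide could not be tested. Precision is limited by the number of arrays.

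Group means of the 4 title groups were estimated over all 16 samples by lmFit and eBayes of limma 3.58.1 under R 4.3.3. P-values are two-sided and adjusted with Benjamini-Hochberg over all genes, and a gene is called under 0.05. The fit was tested on simulated data with 200 changed genes. The members and the gene lists (215 of 222 list entries measured) were chosen with earlier results of these data known. All members are named; from each pathway list the called genes, at most 4 per comparison, and the 2 brightest are named, from each cell type list the 2 brightest, and the 8 genes most like the members. Nkx2-1, Cebpa and Foxa2 (for the motifs), Fgf10, and Ramp2 (a called marker) were named besides, after their values were seen. Alternatives changed the centring, the quantile normalization, the choice of features, a filter at the median, the groups fitted, trend and array weights, the replicate block, a thymocyte covariate (a list chosen in earlier work on these data) and left out each sample.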

Additional observations from a re-analysis of the deposited data

Results flagged for a closer look

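Of 33 groups of 4 or more samples tested over the 11 member features, 1 had a sample far from the others: Sftpc in Fgf10+/- normoxia replicate 2, at 15.9739 where the other 3 samples of the group were at 15.9819. Chance flags about 1 in 20 groups, and the value lies within 0.05 of the array ceiling, where differences have no measured size.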

How the results depend on the processing

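Of 618 alternative values for 31 member results, 591 kept their direction and their side of the threshold, 26 changed direction and 1 came to pass the threshold. Much of this count was fixed beforehand. The sorted values of any 2 arrays differed by at most 0.20, so centring or quantile normalization of all features could change little. The smallest adjusted p of a member in the main fit was 0.238 (limma), and the results include Sftpc, whose change could not be measured. The number of members called was 0 in every setting run for hyperoxia in Fgf10+/- pups, for both genotype comparisons and for the interaction. For hyperoxia in WT pups it was 0 in every setting but the comparison of both genotypes together, where it was 1 (Sftpa1, at -0.81). At an equal level of other AT2 genes it was 1, but 0 with Dlk1 left out of the covariate list and 0 with the features of a gene averaged, and between 0 and 1 when 1 sample was left out. Sftpa1 stayed negative in 22 of 22 alternatives in WT and 17 of 17 in Fgf10+/- pups.

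The replicate numbers were not treated as pairs in the main fit. Deviations of same-numbered samples correlated between -0.16 and 0.24, with 4 of 18 pairs over 0.1. Differently numbered samples were not set beside them, so these values cannot decide whether the numbers pair the samples. With the number as a replicate block, Lamp3 in WT pups turned to 0.0595, Sftpa1 stood at -0.45, and calls over all genes fell to 216 in WT and 103 in Fgf10+/- pups. Centring the arrays on the median of the 20725 genes raised every WT hyperoxia difference by 0.11, and Sftpc turned to 0.10.

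In hyperoxia against normoxia, Sftpb turned to -0.23 in WT and -0.20 in Fgf10+/- pups with the other feature, and in Fgf10+/- pups to -0.0485 with the mean of features and -0.15 with the thymocyte covariate. Slc34a2 in Fgf10+/- pups turned to 0.0208 with array weights. Between genotypes in normoxia, Sftpb turned to -0.53 with the other feature and -0.14 with the mean of features, and Sftpa1 to 0.0185 with the thymocyte covariate. The causes were not tested.

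Leaving out 1 sample at a time, Sftpd in WT pups ran from -0.53 to 0.0864. In Fgf10+/- pups Slc34a2 ran from -0.92 to 0.71, Sftpb from -0.51 to 0.72, Abca3 from -0.84 to 0.29, Lamp3 from -0.74 to 0.43, Napsa from -1.09 to 0.77 and Lpcat1 from -1.42 to 0.0588, the ends being the fits without 1 of the 2 hyperoxia samples. Between genotypes in normoxia Sftpd ran from -0.16 to 0.50, Sftpa1 from -0.35 to 0.12 and Slc34a2 from -0.35 to 0.0948. In hyperoxia Lpcat1 ran from -1.41 to 0.0728, and in the interaction Napsa ran from -0.62 to 1.25 and Slc34a2 from -1.27 to 0.35. Calls over all genes ranged from 216 to 2957 over the settings for hyperoxia in WT and from 90 to 816 in Fgf10+/- pups.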
